A study of Mus musculus with 20 samples.

Results

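A set of 10 genes of fatty acid uptake and intracellular fatty acid binding was followed in mouse liver across the genotypes and diets of a study of stearoyl-CoA desaturase 1 (Scd1), the enzyme that makes monounsaturated fatty acids. They were Lpl, Vldlr, Cd36, Slc27a1, Slc27a4, Mfsd2a, Fabp1, Fabp2, Fabp4 and Fabp5, chosen by symbol as 10 of the 18193 genes that the array names singly, and the probe set with the highest mean log2 value stood for each gene. All 10 were above the floor of 16 intensity units on at least 1 array, as were 16188 genes in all. RNA from 20 individual livers was hybridised to Affymetrix Mouse 430 2.0 arrays, 1 array per liver and 5 livers per group. The groups were Scd1-/- mice fed a very low fat diet (Harlan Teklad TD03045; KO VLF), Scd1+/+ mice on that diet (WT VLF), Scd1-/- mice on chow (KO chow) and Scd1+/+ mice on chow (WT chow). Age, sex, strain, time on the diet and the make-up of the knockout allele were not given. The design text states that the arrays were meant to find expression changes unique to the Scd1-/- mice on the very low fat diet.

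Fatty acids reach a cell either free, bound to albumin, or within the triglyceride of lipoproteins. Lipoprotein lipase releases them at the vessel wall, membrane proteins such as CD36 and the fatty acid transport proteins help them enter and be activated, and small fatty acid-binding proteins carry them through the cytosol. Adult hepatocytes are known for abundant FABP1 and little lipoprotein lipase, whereas FABP4 is best known from adipocytes and macrophages and FABP5 from skin and macrophages.

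The promoters of Fabp1, Fabp2 and Mfsd2a are shown because these genes differed in how their levels moved with diet in the 2 genotypes. Each runs 5′ to 3′ along the gene's own strand, covers 250 bases before and 50 bases after the RefSeq start (build GRCm38.p6), and has matches to the searched motifs in capitals.
Fabp1, chr6:71199629-71199928, plus strand: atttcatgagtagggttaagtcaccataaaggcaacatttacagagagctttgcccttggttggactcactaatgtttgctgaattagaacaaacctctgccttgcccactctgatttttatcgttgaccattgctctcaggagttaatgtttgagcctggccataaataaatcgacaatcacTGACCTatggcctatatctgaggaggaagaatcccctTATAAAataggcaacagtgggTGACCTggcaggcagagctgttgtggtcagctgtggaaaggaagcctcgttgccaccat
Fabp2, chr3:122894822-122895121, plus strand: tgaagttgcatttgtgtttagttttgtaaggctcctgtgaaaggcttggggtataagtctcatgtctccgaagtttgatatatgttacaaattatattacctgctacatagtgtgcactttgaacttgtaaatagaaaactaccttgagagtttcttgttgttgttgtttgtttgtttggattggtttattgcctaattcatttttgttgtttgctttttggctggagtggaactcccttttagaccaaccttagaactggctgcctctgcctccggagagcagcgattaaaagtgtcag
Mfsd2a, chr4:122961139-122961438, minus strand: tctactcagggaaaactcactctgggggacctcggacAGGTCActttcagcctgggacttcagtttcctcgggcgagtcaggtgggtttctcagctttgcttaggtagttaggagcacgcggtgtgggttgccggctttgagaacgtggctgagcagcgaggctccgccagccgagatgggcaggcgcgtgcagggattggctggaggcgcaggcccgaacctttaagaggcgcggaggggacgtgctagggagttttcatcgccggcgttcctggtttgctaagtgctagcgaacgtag
A search of both strands covered the TATA box TATAAA, the nuclear receptor core site AGGTCA, the GC box GGGCGG and the E-box CACGTG. It also covered the DR1 element, a pair of those core sites with a base between them that can overlap a core-site match, and the palindromic HNF1 site. The Fabp1 window held the TATA box with its first base at -30 and the core site on the opposite strand at -67 and -9. The Mfsd2a window held the core site at -213, and the Fabp2 window held none of the 6 motifs. Among 32851 RefSeq promoters of the same length, the TATA box occurred in 13.6%, the core site in 16.3%, the DR1 element in 0.0396%, the HNF1 site in 0.00913%, the GC box in 35.7% and the E-box in 7.15%. The table held promoters for 7 of the 10 genes, with Lpl, Fabp4 and Fabp5 not among them.

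Scd1 itself read 27.15 to 36.93 intensity units in KO VLF livers against 16850 to 20349 in WT VLF livers, and 29.14 to 57.86 in KO chow livers against 6496 to 10425 in WT chow livers. The deposited median intensity lay between 32.2 and 36.6 on the 20 arrays. KO chow replicate 3 stood apart from the other KO chow arrays on the first principal component, at -2.6 against 15.1 to 19, and held the highest KO chow values of Cd36, Fabp4, Fabp5 and Mfsd2a. The 3′ to 5′ signal ratio of the actin control probe sets, a measure of RNA integrity, was 1.69 to 1.96 in KO VLF, 1.95 to 2.39 in WT VLF, 2.1 to 2.37 in KO chow and 2.49 to 3.07 in WT chow. WT chow replicate 5 had the highest ratio, 3.07. That array held the highest WT chow values of Lpl, Vldlr, Cd36, Slc27a4 and Fabp4, and the lowest of Fabp1, Fabp2, Slc27a1 and Mfsd2a. The part of RNA integrity in the results was not tested.

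On the very low fat diet, 5 of the 10 genes differed between KO and WT livers at an adjusted p under 0.05, with Lpl, Fabp4 and Cd36 higher and Fabp2 and Fabp1 lower in the knockout. Of all 16188 genes, 47.4% were called in this comparison, 21.6% higher and 25.8% lower, so the share of members called was near the background. Higher genes were 45.5% of the calls, against 57.2% with median scaling only and 84.2% with centring on the hybridization controls. The median absolute log2 change was 0.64 over the members and 0.23 over all genes, and Slc27a4, Fabp5 and Slc27a1 lay below 0.23. The signed medians were -0.15 and -0.06. The members were chosen with earlier results of these data known, so these medians are no test of the members. All genes also include dim ones near the floor. The groups did not overlap for 5 members, against 33.8% of all genes. Adjusted p-values throughout are from limma with Benjamini-Hochberg adjustment, over 45037 probe sets unless a setting averages or leaves out probe sets.

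Lpl encodes lipoprotein lipase, which hydrolyses the triglyceride of circulating lipoproteins. Its normalized intensity in KO VLF livers was 2249, 3603, 3224, 2156 and 2409, against 171.9, 216.5, 175.0, 200.9 and 163.2 in WT VLF livers. KO chow livers read 192.3, 229.8, 235.6, 270.5 and 335.0, against 195.8, 222.3, 195.1, 156.3 and 376.3 in WT chow livers. Every KO VLF liver lay far above every liver of the other groups, and those other groups overlapped. Lpl was 14.5-fold higher in KO VLF than in WT VLF livers, a log2 change of 3.86 ± 0.20 (SE, adjusted p = 6.74e-11). It was 10.8-fold higher in KO VLF than in KO chow livers (log2 3.43 ± 0.20, adjusted p = 3.18e-10). On chow the genotypes differed by 0.18 ± 0.20 (adjusted p = 0.755), with a 95% interval of -0.24 to 0.61, and in WT livers the diets differed by -0.25 ± 0.20 (adjusted p = 0.804). The second Lpl probe set gave 3.68 ± 0.22 between the genotypes on the very low fat diet (adjusted p = 3.68e-10). These are whole-liver values, in which a change in the number of cells of a type and a change in RNA per cell cannot be told apart.

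**Figure D1:**
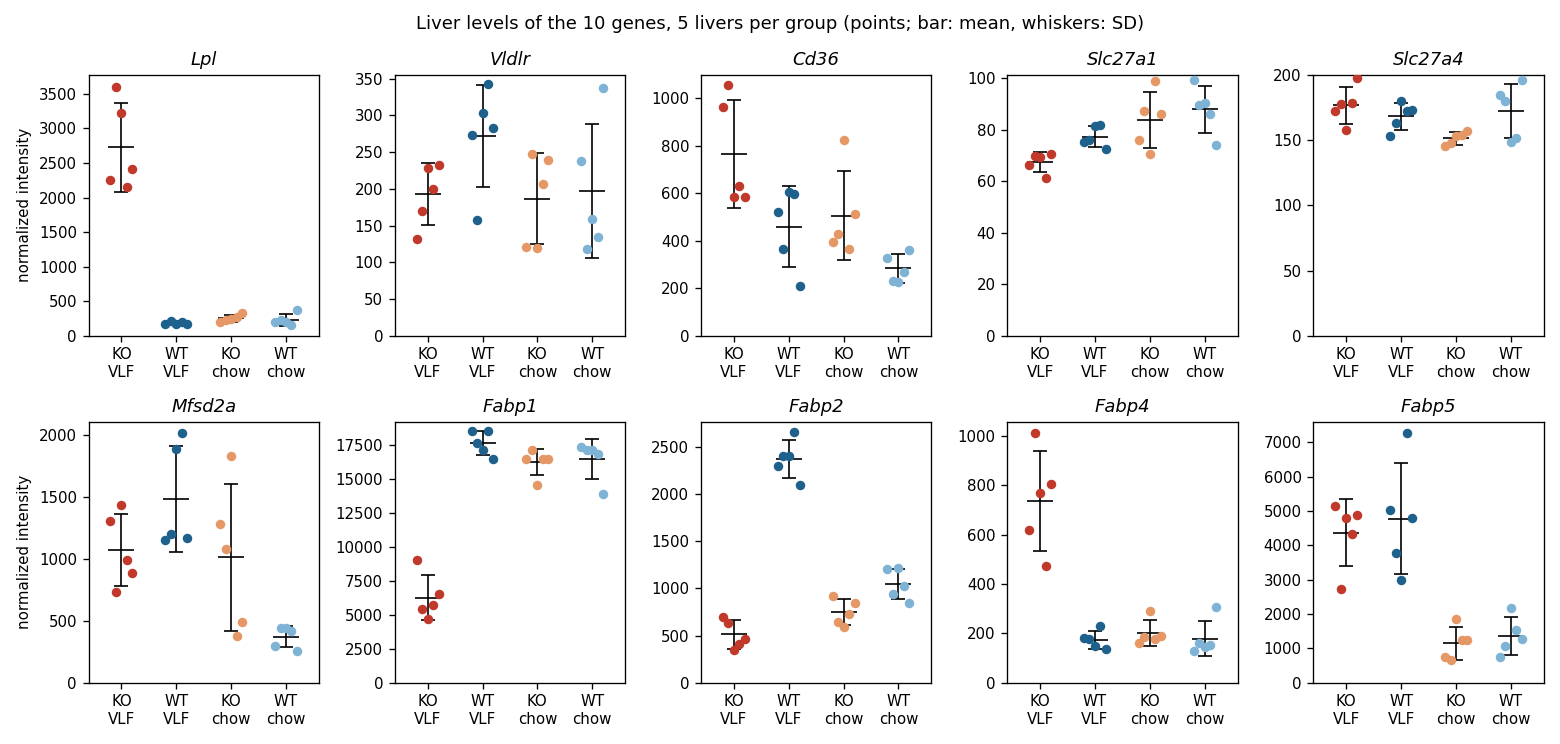
Normalized intensity of each of the 10 genes (vertical axis, linear from 0) in each liver, by group along the horizontal axis; points are livers, bars the mean and whiskers the SD of 5 livers. The KO VLF livers stand above all others for Lpl (2156 to 3603) and Fabp4, below all others for Fabp1, and beside the WT VLF livers for Fabp5.

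Fabp4 encodes the fatty acid-binding protein of adipocytes and macrophages. It read 619.2, 1013, 769.3, 474.6 and 807.0 in KO VLF livers, against 180.4, 175.0, 148.6, 231.0 and 135.1 in WT VLF livers. It read 158.7, 184.9, 290.8, 177.4 and 188.9 in KO chow livers, against 127.4, 160.1, 143.8, 154.0 and 304.5 in WT chow livers. As with Lpl, the KO VLF livers were all higher than the rest, and the single high values on chow came from KO chow replicate 3 and WT chow replicate 5. Fabp4 was 4.17-fold higher in KO VLF than in WT VLF livers (log2 2.06 ± 0.23, adjusted p = 1.28e-06). It was 3.65-fold higher in KO VLF than in KO chow livers (log2 1.87 ± 0.23, adjusted p = 4.59e-06). Neither the genotype on chow (0.21 ± 0.23, adjusted p = 0.759) nor the diet in WT livers (0.02 ± 0.23, adjusted p = 1) gave a call. Between the genotypes on the very low fat diet, another of the 4 Fabp4 probe sets gave 2.18 ± 0.28 (adjusted p = 4.58e-06). The remaining ones, with mean log2 values of 4.02 and 4.37 near the floor, gave 0.08 (adjusted p = 0.349) and 0.22 (adjusted p = 0.157).

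Cd36 encodes a scavenger receptor that also takes up fatty acids. It read 962.7, 1056, 585.6, 629.2 and 584.3 in KO VLF livers, against 521.3, 363.5, 605.6, 596.2 and 210.1 in WT VLF livers. KO chow livers read 392.9, 426.6, 824.0, 366.4 and 513.8, against 328.1, 229.6, 227.6, 270.2 and 362.3 in WT chow livers. The VLF groups overlapped, while on chow every KO liver was above every WT liver. Cd36 was 1.72-fold higher in KO VLF than in WT VLF livers (log2 0.79 ± 0.28, adjusted p = 0.0403). That call was lost with the mean of its 3 probe sets (adjusted p = 0.0667), with the 2 groups fitted alone (0.0786), and without KO VLF replicate 1 or 2 or WT VLF replicate 2 or 5. The change on chow was of the same size (0.79 ± 0.28, adjusted p = 0.114), and without KO chow replicate 3 it was 0.60 (adjusted p = 0.315). The difference between the 2 genotype changes was -0.005 ± 0.40 (adjusted p = 1).

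Fabp1 encodes liver fatty acid-binding protein, the main cytosolic fatty acid carrier of hepatocytes. It read 9019, 5455, 4675, 5713 and 6516 in KO VLF livers, against 18537, 17680, 17131, 18537 and 16500 in WT VLF livers. It averaged 16248 ± 957 in KO chow livers and 16487 ± 1456 in WT chow livers (SD, n = 5 each). All KO VLF livers were below all other livers, and the remaining groups overlapped. Fabp1 was 2.89-fold lower in KO VLF than in WT VLF livers (log2 -1.53 ± 0.12, adjusted p = 1.29e-08), and 2.65-fold lower in KO VLF than in KO chow livers (log2 -1.41 ± 0.12, adjusted p = 3.98e-08). Fabp1 is among the brightest probe sets of these arrays, whose highest deposited values were 22687 to 25117, and its second, dimmer probe set gave a log2 change of -0.89 between the genotypes on the very low fat diet.

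Fabp2 encodes the intestinal fatty acid-binding protein, which hepatocytes also express at lower levels. It read 701.3, 633.2, 345.8, 413.0 and 465.9 in KO VLF livers, against 2299, 2411, 2409, 2659 and 2099 in WT VLF livers. It read 924.5, 644.8, 595.7, 733.6 and 847.3 in KO chow livers, against 1202, 946.1, 1217, 1028 and 847.7 in WT chow livers. The WT VLF livers were all above every other liver, and the KO VLF and KO chow livers overlapped. Fabp2 was 4.79-fold lower in KO VLF than in WT VLF livers (log2 -2.26 ± 0.17, adjusted p = 6.41e-09). On chow it did not pass the test between genotypes (-0.49 ± 0.17, adjusted p = 0.102).

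The remaining members gave no call between the genotypes on the very low fat diet. Slc27a1 encodes fatty acid transport protein 1 of muscle and fat, and read 61.11 to 70.48 in KO VLF against 72.26 to 81.78 in WT VLF livers. These ranges did not overlap, but the log2 change was -0.20 ± 0.08 (adjusted p = 0.0774). It was called with the mean of its 2 probe sets (adjusted p = 0.00678), with the 2 groups fitted alone (0.0182) and without KO chow replicate 3 or 4. Slc27a4, fatty acid transport protein 4, read 157.9 to 197.6 in KO VLF and 153.0 to 179.8 in WT VLF livers (0.07 ± 0.07, adjusted p = 0.582), a difference that was called with median scaling only (0.27) and with centring on the hybridization controls (0.46). Vldlr, the very low density lipoprotein receptor, read 132.2 to 232.9 in KO VLF and 158.0 to 343.5 in WT VLF livers (-0.49 ± 0.29, adjusted p = 0.241), and its brightest probe set was called in none of the 5 comparisons. That Vldlr probe set is marked as cross-hybridizing, and the next brightest gave -0.30 ± 0.15 (adjusted p = 0.151). Of the 5 other Vldlr probe sets, 1 dimmer one was called lower in KO VLF than in WT VLF livers (-0.66 ± 0.18, adjusted p = 0.00672). Fabp5 and Mfsd2a are described with the diet.

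On chow, none of the 10 members was called between KO and WT livers by limma, where 3.3% of all genes were, 1.38% higher and 1.91% lower. At an unadjusted p under 0.05, 4 members passed in limma: Cd36, Fabp2, Slc27a4 and Mfsd2a. The 534 calls over all genes were not stable: leaving out single arrays gave 25 to 1034, the 2 groups fitted alone gave 11 and centring on the hybridization controls gave 3. Higher genes were 41.9% of the calls, against 84.3% with median scaling only. Cd36 was the 1 member whose groups did not overlap there, against 6.89% of all genes. Mfsd2a, which encodes a sodium-dependent transporter of lysophosphatidylcholine carrying long-chain fatty acids, came closest to a call. It read 1282, 1080, 1832, 380.1 and 486.6 in KO chow livers, against 298.9, 437.4, 438.9, 419.2 and 256.1 in WT chow livers. All KO chow livers but replicate 4 were above the WT chow livers, replicate 5 only just. The log2 change was 1.25 ± 0.35 (adjusted p = 0.0586), and it was called with median scaling alone (0.0317), with a floor at 1, with a mean log2 of at least 6 and without KO chow replicate 5 (0.0454). Without KO chow replicate 3, which held the highest value, it was 0.98 (adjusted p = 0.167).

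**Figure D2:**
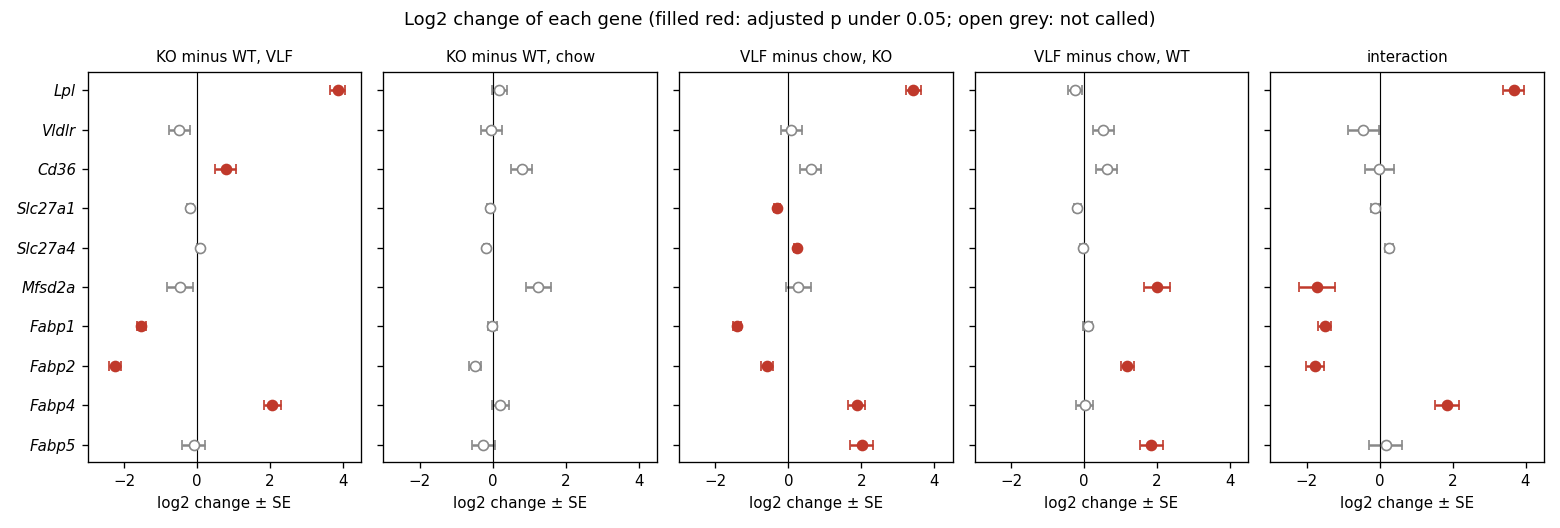
Log2 change (horizontal axis, ± SE) of each gene in the 5 comparisons, filled where the adjusted p is under 0.05. The KO minus WT panel holds calls on both sides of 0 on the very low fat diet and no call on chow.

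In KO livers, the very low fat diet against chow gave calls for 7 members: Lpl, Fabp4, Fabp5 and Slc27a4 were higher, and Fabp1, Fabp2 and Slc27a1 were lower. Of all genes, 39% were called, 19.2% higher and 19.8% lower. Higher genes were 49.2% of the calls, against 88.6% with centring on the hybridization controls. Without KO chow replicate 3 there were 8 members, Cd36 being the added one (0.81, adjusted p = 0.0352). Over all genes, 6656 were called without that array, against 6321 with it. In WT livers 3 members rose with the diet, Fabp5, Mfsd2a and Fabp2, where 1.76% of all genes were called, 0.883% higher and 0.877% lower. Groups did not overlap for 6 members in KO livers (28.4% of all genes) and for 3 members in WT livers (4.79%). The KO VLF livers enter both the genotype comparison on the very low fat diet and the diet comparison in KO livers, so those results share samples.

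Fabp5 encodes the epidermal fatty acid-binding protein, also carried by macrophages. It read 5136, 2722, 4787, 4328 and 4869 in KO VLF livers, against 739.8, 645.6, 1836, 1235 and 1251 in KO chow livers. It read 5014, 3785, 3001, 7269 and 4794 in WT VLF livers, against 739.3, 1066, 2184, 1535 and 1260 in WT chow livers. In both genotypes every liver on the very low fat diet was above every liver on chow. Fabp5 was 4.01-fold higher on the very low fat diet in KO livers (log2 2.00 ± 0.31, adjusted p = 5.39e-05) and 3.59-fold higher in WT livers (log2 1.84 ± 0.31, adjusted p = 0.00587). Between the genotypes on that diet it differed by -0.10 ± 0.31 (adjusted p = 1, 95% interval -0.75 to 0.56). Fabp5 and Fabp4 lie near each other on chromosome 3, with 4 annotated genes between them of which Pmp2 and Fabp9 code for protein.

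Mfsd2a read 1306, 732.1, 1440, 993.4 and 888.7 in KO VLF livers, within the KO chow range. It read 1150, 1201, 1887, 2023 and 1169 in WT VLF livers, all above the WT chow livers. It was 3.98-fold higher on the very low fat diet in WT livers (log2 1.99 ± 0.35, adjusted p = 0.00807), and the change in KO livers was 0.27 ± 0.35 (adjusted p = 0.762). Fabp2 was 2.28-fold higher on the diet in WT livers (log2 1.19 ± 0.17, adjusted p = 0.00181). In KO livers Fabp2 was lower on the diet (log2 -0.58 ± 0.17, adjusted p = 0.0142), a call lost with the 2 groups fitted alone (0.0645) and with centring on the hybridization controls (-0.16, adjusted p = 0.58).

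Slc27a4 read 157.9 to 197.6 in KO VLF livers and 145.5 to 156.8 in KO chow livers, so the groups did not overlap. The log2 change was 0.22 ± 0.07 (adjusted p = 0.0305), lost with median scaling alone (0.0537) and without KO VLF replicate 2, 4 or 5 or KO chow replicate 1 or 2. Slc27a1 read 61.11 to 70.48 in KO VLF livers and 70.63 to 99.01 in KO chow livers (log2 -0.31 ± 0.08, adjusted p = 0.00893). With centring on the hybridization controls the Slc27a1 change was 0.07, of the opposite sign, in a setting that moved the median of all genes in this comparison to 0.30, against -0.03.

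The change with diet differed between the genotypes for 5 members, tested as the interaction, where 27.2% of all genes were called, 13.6% in each direction. Positive interactions were 50.1% of these, against 86.5% with centring on the hybridization controls. The interaction was positive for Lpl (3.67 ± 0.29, adjusted p = 4.54e-08) and Fabp4 (1.85 ± 0.33, adjusted p = 0.000442). It was negative for Fabp2 (-1.77 ± 0.24, adjusted p = 2.46e-05), Fabp1 (-1.51 ± 0.17, adjusted p = 3.39e-06) and Mfsd2a (-1.72 ± 0.50, adjusted p = 0.0195). Lpl and Fabp4 were higher on the diet in KO livers with no call in WT livers, Fabp1 was lower in KO livers with no call in WT livers, and Fabp2 was called in opposite directions. The Mfsd2a interaction was lost with array weights (-1.31, adjusted p = 0.0514). For Fabp5 the interaction was 0.16 ± 0.44 (adjusted p = 1), with a 95% interval of -0.77 to 1.09.

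**Figure D3:**
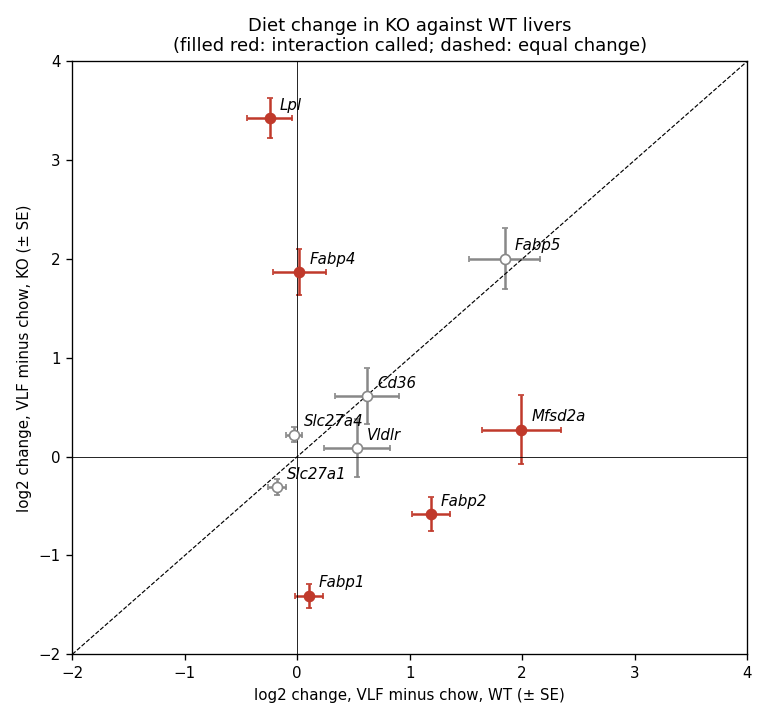
Log2 change with the very low fat diet in KO livers (vertical axis) against that in WT livers (horizontal axis), each ± SE; the dashed line marks equal change and filled points a called interaction. Fabp5 lies near the dashed line at 2.00 and 1.84, Lpl and Fabp4 lie above it, and Mfsd2a, Fabp2 and Fabp1 lie below it.

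Markers of other cell types were read beside these genes. On the very low fat diet, 21.6% of all genes were called higher and 25.8% lower in KO than in WT livers. On chow 3.3% were called. The count of each marker list stands against these shares. All 12 macrophage markers rose in KO VLF against WT VLF livers, with a median log2 change of 1.65, and none was called between the genotypes on chow. Their summed intensity was 14302 to 21907 in KO VLF, 5824 to 6711 in WT VLF, 6749 to 9749 in KO chow and 6826 to 7889 in WT chow livers, and their part in the Lpl, Fabp4 and Cd36 results was not tested. Of 4 measured adipocyte markers, Cidec rose and Retn fell, and Adipoq was at the floor on all 20 arrays. The sum was 176 to 206.6 in KO VLF, 137.8 to 174.3 in WT VLF, 121.6 to 157.5 in KO chow and 149.7 to 193.5 in WT chow livers. Cidec rose from near the floor, at 34.77 to 88.54 in KO VLF against 16 to 19.89 in WT VLF livers. All chow livers were at the floor for Cidec. Of 7 measured hepatocyte markers, Hnf4a (-0.31) and Fga (-0.18) were lower in KO VLF than in WT VLF livers. Their sum is not compared, because Alb, Ttr and Apoa1 make up most of it and sit at the top ranks that quantile normalization sets.

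Of 7 measured cholangiocyte and squamous epithelial markers, Sprr1a (6.19), Cldn4 (1.57) and Sox9 (1.16) rose in KO VLF against WT VLF livers, and none was called on chow. Their summed intensity was 1875 to 4528 in KO VLF, 328.9 to 388.8 in WT VLF, 233.3 to 340.7 in KO chow and 323.5 to 424.3 in WT chow livers. Sprr1a made up most of the KO VLF sum, at 1476 to 4143 there against 37 to 43.99 in WT VLF livers. The other 4 markers, Krt19, Krt7, Krt14 and Epcam, were not called on the very low fat diet. Of 8 endothelial markers, Lyve1 rose (2.45), and Kdr (-0.69), Clec4g (-0.53) and Stab2 (-0.44) fell, with sums of 1760 to 2689 in KO VLF and 1947 to 2368 in WT VLF livers. Of 5 measured muscle markers, Acta1 rose (0.20), and Ckm (-0.43) and Mb (-0.34) fell, with sums of 172.2 to 213 in KO VLF and 202.3 to 231.7 in WT VLF livers. The part of these cells in the members' results was not tested.

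None of 5 measured enterocyte markers was called between the genotypes on the very low fat diet, and Lct was at the floor on all arrays. The diet comparisons called 39% of all genes in KO livers and 1.76% in WT livers. With the diet, 1 of the 5 was called in each genotype, Apoa4, an apolipoprotein of gut that mouse liver also makes. It was higher by 2.86 on the log2 scale in KO VLF than in KO chow livers, and by 2.27 in WT VLF than in WT chow livers. The list's part in the changes of Fabp5, Fabp2 and Mfsd2a with diet was not tested.

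Beyond the members, 37 genes of 6 lists around fatty acid uptake were measured of 47 listed. In KO VLF against WT VLF livers 8 rose, 18 fell and 11 were not called, against 21.6% higher and 25.8% lower over all genes. On chow none of the 37 was called between the genotypes by limma, against 3.3% of all genes, and 7 had an unadjusted p under 0.05. Acsl4 (0.88, adjusted p = 0.0508) and Dbi (-0.24, adjusted p = 0.0511) were near a call on chow. Both were called there with array weights (0.0328 and 0.0201). The median log2 change of the 37 genes on the very low fat diet was -0.15. With centring on the hybridization controls the falls of Acsl5, Acsl3, Apoa5 and Lrp1 lost their calls. The count of each list below stands against the same all-gene shares.

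Of 3 measured fatty acid transport proteins, 2 fell and none rose. Slc27a2, a very long-chain acyl-CoA synthetase and transporter of liver, read 2919, 2360, 2122, 2504 and 2163 in KO VLF livers, against 6179, 7534, 6635, 6162 and 5596 in WT VLF livers (log2 -1.41 ± 0.11, adjusted p = 1.46e-08). Slc27a5, the bile acyl-CoA synthetase, fell by 1.34 on the log2 scale (adjusted p = 1.25e-08). In both the KO VLF livers were below all WT VLF livers. Slc27a3 changed by -0.07 without a call.

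Of 6 other fatty acid- and acyl-CoA-binding genes, 1 rose and 2 fell. Fabp7, the brain fatty acid-binding protein, read 147.8 to 329.1 in KO VLF livers, against 58.43 to 93.84 in WT VLF livers (log2 1.75 ± 0.25). Scp2, sterol carrier protein 2, fell by 0.87 and Dbi, the acyl-CoA-binding protein, fell by 0.67 on the log2 scale. Dbi was read from a probe set marked as cross-hybridizing. Fabp6 and Fabp9 were at the floor on all 20 arrays.

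All 4 measured long-chain acyl-CoA synthetases, which activate fatty acids, were called, 1 higher and 3 lower, in a comparison that called 47.4% of all genes. Acsl4, which prefers arachidonate, rose by 1.38 ± 0.23. With the diet in WT livers Acsl4 changed by 0.92 (adjusted p = 0.0669), and its interaction was 0.51 ± 0.33 (adjusted p = 0.401). Acsl5 fell by 0.53 and Acsl3 fell by 0.69 on the log2 scale. Acsl6 had a change of -0.14 with an adjusted p of 0.0487. Acsl3 changed by 0.0372 when probe sets marked as cross-hybridizing were left out.

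Of 10 partners and regulators of lipoprotein lipase, 2 rose and 5 fell. Apoc2, the cofactor that activates the enzyme, read 7401, 7057, 5287, 8851 and 8430 in KO VLF livers, against 4642, 4534, 4917, 5091 and 4157 in WT VLF livers (log2 0.65 ± 0.11). Apoc2 also rose with the diet in both genotypes, by 0.71 on the log2 scale in WT livers. Apoa5, which aids lipolysis, fell by 0.49, and Lipg, endothelial lipase, fell by 1.84 on the log2 scale.

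Of 7 lipoprotein and scavenger receptors, 3 rose and 2 fell. Lrp8, an apolipoprotein E receptor, rose by 1.47 ± 0.15 and Msr1, a macrophage scavenger receptor, by 1.26 ± 0.14, while Lrp1 fell by 0.52 on the log2 scale. Of 7 transcription factors that act on these genes, 1 rose and 4 fell. Srebf1, which drives lipogenic genes, fell by 1.93, Ppara, the fasting and fatty acid receptor, fell by 1.52, and Nr1h3, the oxysterol receptor LXR alpha, fell by 0.75 on the log2 scale.

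**Figure D4:**
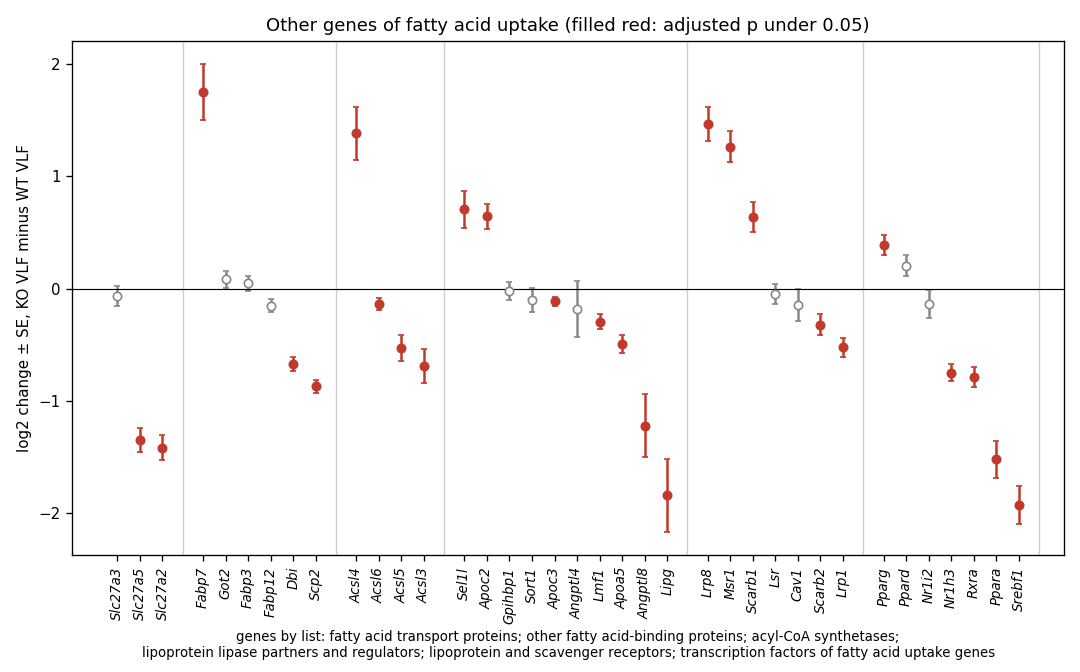
Log2 change, KO VLF minus WT VLF (vertical axis, ± SE), of the 37 measured genes of the 6 lists along the horizontal axis, filled where the adjusted p is under 0.05. Fabp7, Lrp8 and Acsl4 stand highest and Srebf1, Lipg and Ppara lowest.

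The genes closest in pattern were found by the root mean square difference over 20 arrays of log2 values, each centred on its own WT chow mean. For Lpl they were Nucb2 (0.365), Mmp12 (0.371) and Nid1 (0.372), and for Fabp4 they were Slc25a4 (0.269), Nudt18 (0.276) and Uap1l1 (0.298). For Fabp2 they were Rflna (0.351), Fads2 (0.369) and D130043K22Rik (0.383). For Fabp1 they were Glyat (0.173), Slc27a2 (0.182) and Adtrp (0.183). Mmp12 encodes the macrophage metalloelastase and Fads2 the delta-6 desaturase.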

How the data were processed

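The deposited table held 1 intensity per probe set for 45101 probe sets and 20 arrays; from the values, the intensities are on a linear scale. Per the submitters' processing notes the tools were MAS5 and RMA; which made the deposited values was not given in the sources. Total RNA was labelled with biotin per the labels' protocols. Each array was scaled to the same median, values under 16 were set to 16, and the log2 values were quantile normalized; printed levels are these values on the linear scale. A model of 4 group means was fitted with limma 3.58.1 in R 4.3.3 (empirical Bayes, 16 residual degrees of freedom), with Benjamini-Hochberg adjustment over the 45037 probe sets that are not controls. A gene was called at an adjusted p under 0.05, on its brightest probe set. Quantile normalization gives equal ranks equal values, so very bright genes repeat values. Named genes were the 10 members, up to 3 per list with the smallest adjusted p between KO VLF and WT VLF livers, and, for the 4 members with the largest change, the 3 genes of most similar pattern. Probe sets with several gene names (932) or none (9160) named no gene. Of 47 listed genes around uptake, 8 were not analysed here and 2 were at the floor on all arrays. The members and lists were chosen with earlier results of these data known. The livers are individual livers per the design text. The p-values rest on the spread between livers within groups, pooled over the 4 groups of 5 livers and moderated across probe sets. The number of arrays limits precision. Replicate numbers were not treated as pairs. There were 11 alternative settings beside leaving out each array. The fit was also run on simulated data in which few probe sets changed. That run left out the normalization, so it does not check the results given here. Figures used Python 3.11.15 and matplotlib 3.10.9.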

Additional observations from a re-analysis of the deposited data

Results flagged for a closer look

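The change with diet differed between KO and WT livers, by the interaction in limma (log2, KO VLF minus WT VLF less KO chow minus WT chow), for 5 members: Lpl 3.67, Fabp4 1.85, Fabp1 -1.51, Mfsd2a -1.72 and Fabp2 -1.77. Among the named genes of the lists it was positive for Lrp8 (1.77), Msr1 (0.98) and Apoc2 (0.79). It was negative for Lipg (-2.56), Srebf1 (-1.80), Ppara (-1.67), Slc27a2 (-1.57), Slc27a5 (-1.43), Scp2 (-0.74), Nr1h3 (-0.67), Lrp1 (-0.55), Dbi (-0.43) and Apoa5 (-0.37). Over all genes, 27.2% had a called interaction. The list genes were named by their adjusted p between KO VLF and WT VLF livers. That difference is part of the interaction, so their calls here are no separate support.

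Single livers lay far from the rest of their group in 10 of 112 tests of the gap to the nearest liver as a share of the group's range, where chance gives about 5%. KO chow replicate 3 held the low value of Fabp1 (14607 against 16500, gap share 0.765) and the high values of Fabp4 (290.8 against 188.9, 0.712) and Fabp7 (134.4 against 89.3, 0.803). WT chow replicate 5 held the low values of Fabp1 (13908 against 16848, 0.852) and Dbi (6729 against 7100, 0.73) and the high value of Fabp4 (304.5 against 160.1, 0.738). In KO VLF livers Fabp5 was low in replicate 2 (2722 against 4328, 0.73). In WT VLF livers Dbi was high in replicate 1 (8607 against 7898, 0.735), and replicate 5 was low for Apoa5 (7600 against 8383, 0.816) and Ppara (2744 against 3086, 0.745).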

How the results depend on the processing

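Over the alternatives, 1509 of 1540 member values kept their call and, where called, their direction, while 16 lost a call, 14 gained one and 1 turned sign. For the named genes of the lists 2707 of 2762 did so, with 15 lost, 37 gained and 3 turned. The values that turned were Slc27a1, KO VLF minus KO chow, at 0.0715, Dbi in that comparison at 0.0710 and the Apoa5 interaction at 0.00276, all with centring on the hybridization controls, and Acsl3, KO VLF minus WT VLF, at 0.0372 without cross-hybridizing probe sets. Members called between KO chow and WT chow numbered 1 with median scaling only, with a floor at 1 and with a mean log2 of at least 6, against 0. Leaving out 1 array at a time gave 4 to 6 members called for KO VLF against WT VLF, 0 to 1 for KO chow against WT chow, 6 to 8 for KO VLF against KO chow, 3 in each case for WT VLF against WT chow, and 5 to 6 for the interaction. Over all genes, the calls then numbered 6742 to 8064 for KO VLF against WT VLF (7668 with all arrays). They numbered 5784 to 6656 for KO VLF against KO chow (6321) and 4117 to 4596 for the interaction (4403). With the replicate number as a block, 4 members were called between KO VLF and WT VLF against 5 without it, and Cd36 had an adjusted p of 0.0631. Over all genes, 7401 were called with the block, against 7668 without it. Same-numbered livers deviated with correlations of -0.248 to 0.234 over 30 pairs, of which 6 were over 0.1. Differently numbered livers were not set beside them, so this cannot decide whether the numbers pair the livers. Over all genes, calls between KO chow and WT chow were 534, against 1492 with median scaling only, 933 with a floor at 1, 1125 with a mean log2 of at least 6, 260 with the replicate block, 11 with the 2 groups fitted alone and 3 with hybridization controls, and leaving out single arrays gave 25 (WT chow replicate 1) to 1034 (KO chow replicate 2). Calls between WT VLF and WT chow were 285, against 175 with median scaling only, 480 with a mean log2 of at least 6, 189 with the 2 groups fitted alone, 500 with array weights and 50 with hybridization controls, and as few as 126 without WT VLF replicate 4. With the hybridization controls as the centre, the median over genes between KO VLF and WT VLF was 0.14, against -0.06. The share of calls that were higher was 84.2%, against 45.5%. There 4 members were called higher and 2 lower, where 5092 of all genes were higher and 957 lower. Higher genes were 84.3% of the calls between KO chow and WT chow with median scaling only, against 41.9%, and 67.4% between WT VLF and WT chow, against 50.2%. The causes were not tested. Signals near the floor limit the dim genes.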
